A study of Homo sapiens with 15 samples.

Results

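The comparison set A549 cells given interleukin-4 (IL4) and a pooled siRNA against ALOX15 beside A549 cells given IL4 and a pooled non-targeting control siRNA. It holds 6 of the 15 libraries of the series, 3 per group, assigned by their labels and columns, and no measured value was used to choose them. A549 is a long-established epithelial line from a lung adenocarcinoma, which the labels liken to alveolar type II cells. All 6 cultures had IL4 at 10 ng/ml. The labels give 1 uM for the ALOX15 siRNA and 48 h from treatment to RNA extraction, and state no dose for the control siRNA. The other 9 libraries are IL4 with a substance named only as Compound A, IL4 alone, and untreated cells, again 3 of each. The siRNA is a mixture against 1 gene, and nothing in the labels says whether cells without siRNA were mock transfected. Nothing in them says whether replicates came from separate cultures either, so p-values reflect only how these samples spread, and that spread may be technical.

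The product of ALOX15, arachidonate 15-lipoxygenase, oxygenates arachidonic and linoleic acid and can also oxidise phospholipids while they are in the membrane. IL4, a cytokine of type 2 immunity, switches the gene on through the transcription factor STAT6 in airway epithelium and in monocytes, and its products are studied in asthma. Arachidonic acid is also the substrate of the cyclooxygenases, which lead to prostaglandins.

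The estimated counts summed to 7442934, 6455431 and 7762937 in the ALOX15 siRNA libraries, against 6916904, 6407936 and 7028749 in the control siRNA libraries. Within each group no pair of libraries was as close as counting noise allows, with a chi-square per degree of freedom of 1.79 to 3.52 between ALOX15 siRNA libraries and 2.46 to 3.20 between control siRNA libraries. On the main axis of variation of all 15 libraries, the ALOX15 siRNA libraries lay at 12.7 to 13.4 and the control siRNA libraries at 7.68 to 8.63, with untreated cells at -36.5 to -35.3. IL4 replicate 1 stood apart from the other libraries on the next axis, at 34.4. It is in neither siRNA group and enters the comparison through the shared filter, scaling and estimate of spread. Without it 12945 genes were tested, against 12795 with it, and counts of calls both ways are given. Markers of the line added up to 40930 to 41660 CPM (counts per 1e6 counts) in the ALOX15 siRNA libraries and 40370 to 41700 CPM in the control siRNA libraries. Of 18 alveolar markers, 7 had enough counts to be tested, and the surfactant gene SFTPB and the lung transcription factor gene NKX2-1 had no count in any of the 6 libraries.

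ALOX15 (ENSG00000161905.12, chr17:4630902-4642294, minus strand, GRCh38) was at 0.136, 0.314 and 0.259 CPM with ALOX15 siRNA, against 3.91, 3.56 and 3.28 CPM with control siRNA. Every ALOX15 siRNA library lay below every control siRNA library, so the target checks the labels. The estimated counts behind these levels were 1, 2 and 2.47 with ALOX15 siRNA, against 27, 23 and 22.78 with control siRNA. The fall was 14.4-fold, a log2 change of -3.85 (SE 0.43, adjusted p = 8.5e-05 by edgeR's quasi-likelihood test with Benjamini-Hochberg adjustment), which left 6.93% of the control siRNA level. ALOX15 averaged 2.21 ± 0.388 CPM with Compound A, 5.27 ± 0.661 CPM with IL4 alone and 0.136 ± 0.151 CPM in untreated cells (SD, n = 3 each). In replicate 3 of each siRNA group the estimate was not whole, as happens where reads are shared with another gene. In such bulk samples, fewer cells with a transcript and less of it per cell cannot be told apart.

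**Figure D1:**
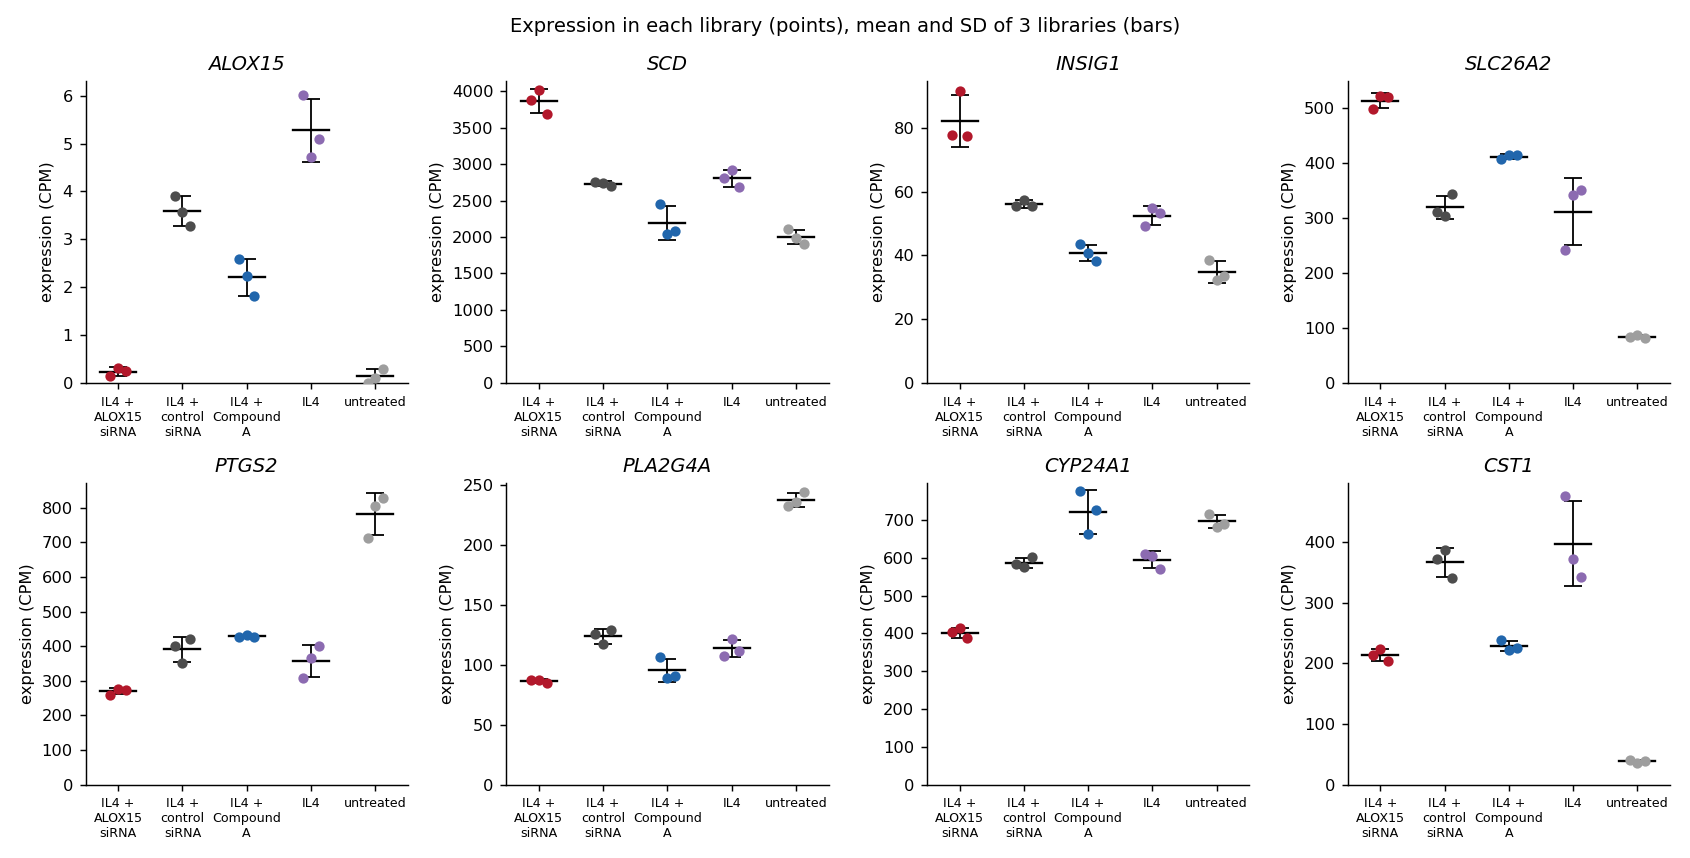
CPM of 8 genes in each library (points) with the mean and SD of 3 libraries (bars), by group. With ALOX15 siRNA, ALOX15, PTGS2, PLA2G4A, CYP24A1 and CST1 lie below all 3 control siRNA libraries, and SCD, INSIG1 and SLC26A2 lie above them.

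Apart from the target ALOX15, which the counts below include, changes were mostly small. Of 12795 genes tested, 89 passed at an adjusted p of at most 0.05 (0.696% of genes tested), 40 higher with ALOX15 siRNA (0.313%) and 49 lower (0.383%). At an unadjusted p under 0.05 there were 1140. The higher genes spanned log2 changes of 0.23 to 1.25 with a median of 0.42, and the lower ones -3.85 to -0.26 with a median of -0.54. Estimated changes of at least 1.5-fold were found for 10 of the higher genes (0.0782% of genes tested) and 16 of the lower genes (0.125%). A test against a 1.5-fold threshold (glmTreat) called 0 higher and 1 lower, ALOX15. TNC alone among the higher genes (0.00782%) and 7 of the lower ones (0.0547%) reached 2-fold. In 77 of the 89 genes both groups had at least 10 CPM. All 89 had libraries that did not overlap between the groups, as did 9.49% of genes tested upwards and 9.18% downwards.

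The number of calls depended on which libraries were fitted. With the 6 siRNA libraries alone, 325 of 12350 genes passed (2.63%), 172 higher (1.39%) and 153 lower (1.24%). These included 88 of the 89, and the 89th, LIPE, was not tested there. The common biological coefficient of variation was 0.0473 in that fit and 0.0731 with all 15 libraries. Leaving out only IL4 replicate 1 gave 148 higher and 124 lower. Leaving out ALOX15 siRNA replicate 1, 2 or 3 gave 20, 14 or 12 higher and 32, 30 or 23 lower, and leaving out control siRNA replicate 1, 2 or 3 gave 12, 20 or 13 higher and 25, 31 or 26 lower. In these 6 fits, 27 of the 89 genes passed every time. The 9 higher ones included SCD, INSIG1, SLC26A2, NPTX1, NAV1, EFEMP1, AHNAK2 and PRKCA. The 18 lower ones were ALOX15, PTGS2, PLA2G4A, CYP24A1, CST1, CFI, SERPINI1, RBFOX3, SLC27A2, PC, ABCG2, MMD, NRP2, TBX3, BTBD11, EDN1, ALDH3A1 and AKR1B1. The other 62 lost their call in at least 1 of these fits, with the same direction throughout.

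**Figure D2:**
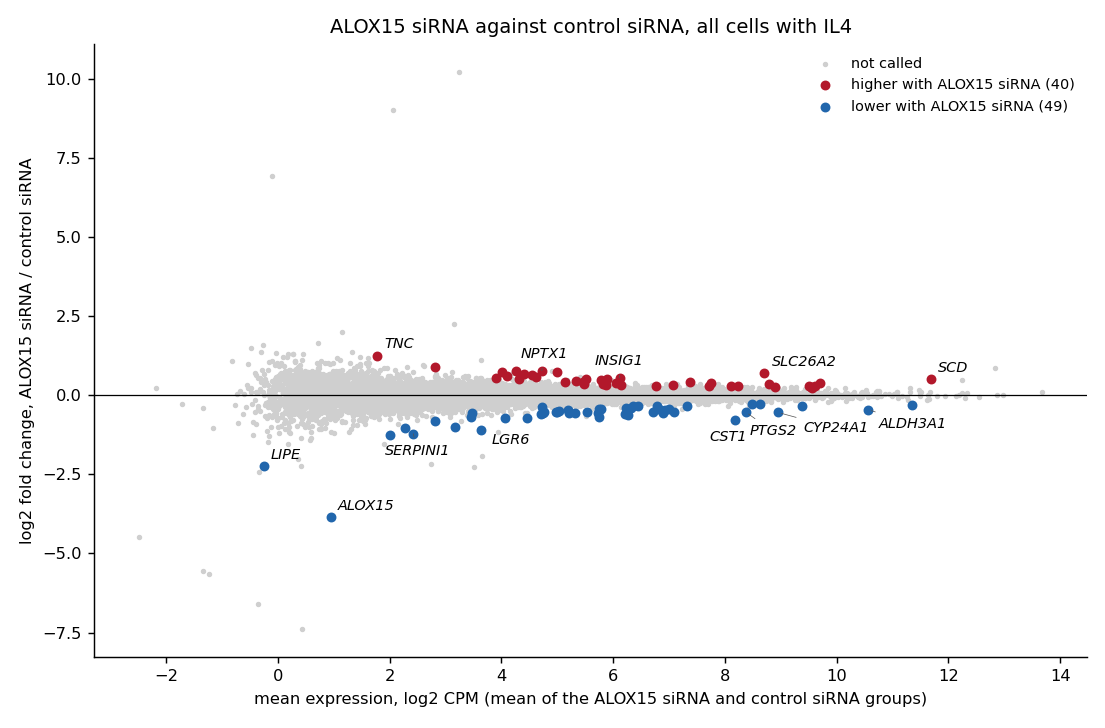
Log2 fold change of ALOX15 siRNA against control siRNA (vertical) by mean level in log2 CPM (horizontal) for 12795 genes; coloured points are the 40 higher and 49 lower genes. Most coloured points lie within 1 log2 unit of 0, and ALOX15 lies lowest among them; grey points did not pass.

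PTGS2 and PLA2G4A, which act at the first steps from membrane lipid to prostaglandins, both fell. PTGS2 (chr1:186671791-186680427), the inducible cyclooxygenase, was at 259.5, 277.7 and 274.7 CPM with ALOX15 siRNA, against 400.1, 350.3 and 421.5 CPM with control siRNA. PLA2G4A (chr1:186828953-186988981), the cytosolic phospholipase A2 that frees arachidonic acid from membranes, was at 87.4, 87.5 and 84.9 CPM with ALOX15 siRNA, against 126.1, 117.1 and 129.0 CPM with control siRNA. In both genes the groups were well apart, and the 3 ALOX15 siRNA libraries of PLA2G4A were nearly level. The log2 change was -0.53 for PTGS2 (SE 0.08, adjusted p = 0.0033) and -0.52 for PLA2G4A (SE 0.07, adjusted p = 8.7e-04). Both calls stood in every fit that left out 1 siRNA library, with adjusted p up to 0.034 for PTGS2 and 0.0095 for PLA2G4A.

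PTGS2 and PLA2G4A are also neighbours. They lie 149 kb apart on chromosome 1 with no tested gene starting between them. This was 1 of 2 pairs of called genes within 200 kb among the 88 with a position. How many such pairs as many other tested genes would form was not counted. The other pair was LXN, a carboxypeptidase inhibitor, and RARRES1, 24.2 kb apart on chromosome 3, which also fell. Of 19 measured genes for arachidonate release and prostaglandin synthesis, PTGS2 and PLA2G4A were the only ones that passed, with 9 positive and 10 negative changes and a median of -0.05. Over all genes tested, 6410 were positive and 6385 negative, with a median of 0.00. PTGES, the microsomal prostaglandin E synthase, was at 9.64 ± 1.85 CPM with ALOX15 siRNA and 7.22 ± 0.243 CPM with control siRNA (adjusted p = 0.38). PTGS1 and 11 other members had too few counts to be tested.

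The start regions of this pair are shown from RefSeq (GRCh38.p14), each from 250 bases before to 50 bases after the start, with matches to the searched motifs in capitals. PTGS2 is read on the minus strand of chr1:186680374-186680673 and PLA2G4A on the plus strand of chr1:186828699-186828998.
PTGS2: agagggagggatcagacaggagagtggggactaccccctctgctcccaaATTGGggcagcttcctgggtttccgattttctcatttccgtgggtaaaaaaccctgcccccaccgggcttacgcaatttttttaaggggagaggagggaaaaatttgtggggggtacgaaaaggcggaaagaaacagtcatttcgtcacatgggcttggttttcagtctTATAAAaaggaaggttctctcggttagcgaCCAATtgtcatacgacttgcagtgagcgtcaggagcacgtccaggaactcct
PLA2G4A: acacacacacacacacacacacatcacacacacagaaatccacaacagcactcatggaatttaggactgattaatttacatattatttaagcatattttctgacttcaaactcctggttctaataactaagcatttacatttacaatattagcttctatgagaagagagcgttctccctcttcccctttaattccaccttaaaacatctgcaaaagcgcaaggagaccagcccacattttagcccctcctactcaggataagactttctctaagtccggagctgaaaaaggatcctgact
The PTGS2 window held a TATA box (TATAAA) 32 bases before the start, a CCAAT box read as ATTGG on the other strand 201 bases before it, and a CCAAT 2 bases before it. The PLA2G4A window held none of the motifs searched. These were the CCAAT box, the TATA box, a STAT6-type palindrome in which TTC is followed after 4 bases by GAA, a sterol response element spelled TCACNCCAC, a cAMP response element spelled TGACGTCA and an AP-1 site spelled TGANTCA. Both strands were searched, and a window counted once for each motif however many matches it held.

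Other enzymes of the lipoxygenase branch did not pass. Of 16 measured genes for eicosanoid and lipoxygenase metabolism, ALOX15 was the only one called, with 6 positive and 10 negative changes and a median of -0.03. The 6-library fit called GPX4 of that list higher and ALOX15 and EPHX1 lower, beside 1.39% and 1.24% of all genes tested there. ALOX5, the leukotriene-forming lipoxygenase, was at 2.15 ± 0.09 CPM with ALOX15 siRNA and 1.62 ± 0.247 CPM with control siRNA (log2 0.40, SE 0.30, adjusted p = 0.80). LTA4H, the leukotriene A4 hydrolase, was at 140.8 ± 3.90 CPM with ALOX15 siRNA and 139.7 ± 3.42 CPM with control siRNA (adjusted p = 0.98). The other lipoxygenases ALOX12, ALOX12B, ALOX15B and ALOXE3 were below the count needed for a test. ALOX12 had no count in any of the 6 libraries, and ALOX15B had 1 count in ALOX15 siRNA replicate 2 and none in the others.

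Among genes of lipid synthesis, SCD and INSIG1 rose. SCD (chr10:100347124-100364834), the stearoyl-CoA desaturase that makes monounsaturated fatty acids, was at 3884, 4020 and 3689 CPM with ALOX15 siRNA, against 2759, 2734 and 2697 CPM with control siRNA. INSIG1 (chr7:155297776-155310235) helps to hold the sterol-regulated transcription factor SREBP in the endoplasmic reticulum. INSIG1 was at 77.7, 91.7 and 77.6 CPM with ALOX15 siRNA, against 55.4, 57.5 and 55.5 CPM with control siRNA. All ALOX15 siRNA libraries lay above all control siRNA libraries in both genes, with INSIG1 highest in ALOX15 siRNA replicate 2. SCD rose 1.42-fold (log2 0.50, SE 0.06, adjusted p = 1.8e-04) and INSIG1 1.46-fold (log2 0.55, SE 0.08, adjusted p = 0.0024).

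Other genes of cholesterol supply did not pass. INSIG1 was the only one called of 30 measured genes for cholesterol synthesis and uptake, of which 23 had positive and 7 negative changes, with a median of 0.14. In the 6-library fit 7 of the 30 were higher and none lower, beside 1.39% and 1.24% of all genes tested there. Among the 7 were INSIG1, SQLE, IDI1, FDFT1, LSS and MSMO1, which are enzymes or regulators of sterol synthesis. SQLE, squalene epoxidase, averaged 187.6 ± 7.96 CPM with ALOX15 siRNA and 160.0 ± 4.29 CPM with control siRNA (log2 0.23, adjusted p = 0.12). Without IL4 replicate 1 in the fit, 4 of the 30 passed, all higher, beside 148 higher and 124 lower of 12945 genes tested.

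Of 34 measured genes for fatty acid, desaturase and glycerolipid synthesis, SCD alone passed, with 23 positive and 11 negative changes and a median of 0.07. The 6-library fit called SCD, FADS1, FADS2 and ACACA higher and none lower, beside 1.39% and 1.24% of all genes tested there. FADS1, the delta-5 desaturase that makes arachidonic acid, was at 736.9 ± 29.4 CPM with ALOX15 siRNA and 643.3 ± 6.04 CPM with control siRNA (log2 0.20, adjusted p = 0.075). ACACA, acetyl-CoA carboxylase, was at 265.6 ± 4.45 CPM with ALOX15 siRNA and 228.0 ± 7.22 CPM with control siRNA (log2 0.22, adjusted p = 0.088). The genes for the transcription factors of both pathways did not pass, SREBF1 having a log2 change of 0.07 (adjusted p = 0.96) and SREBF2 of -0.03 (adjusted p = 0.97). Of 12 liver X receptor targets, SCD was again the only one called, with a median of 0.07.

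The start regions of SCD and INSIG1 are shown in the same way, both read on the plus strand, for chr10:100346983-100347282 and chr7:155297628-155297927.
SCD: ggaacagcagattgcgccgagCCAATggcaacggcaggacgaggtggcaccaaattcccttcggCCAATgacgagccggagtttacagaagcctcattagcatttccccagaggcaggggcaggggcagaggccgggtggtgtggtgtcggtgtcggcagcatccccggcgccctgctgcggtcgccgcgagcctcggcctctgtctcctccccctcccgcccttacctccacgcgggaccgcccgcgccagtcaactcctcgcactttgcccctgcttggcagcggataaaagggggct
INSIG1: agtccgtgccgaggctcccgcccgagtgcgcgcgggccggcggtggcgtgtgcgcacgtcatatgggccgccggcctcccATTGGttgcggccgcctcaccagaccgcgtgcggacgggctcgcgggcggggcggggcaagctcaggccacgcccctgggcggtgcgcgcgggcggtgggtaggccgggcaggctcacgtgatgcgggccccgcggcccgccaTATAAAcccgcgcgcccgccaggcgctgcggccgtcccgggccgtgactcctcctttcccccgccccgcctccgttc
SCD held CCAAT boxes 229 and 186 bases before its start. INSIG1 held a CCAAT box on the other strand 170 bases before its start and a TATA box 27 bases before it. RefSeq start regions were matched for 60 of the 89 called genes and 9630 of the genes tested. CCAAT was in 37.5% of 24 higher genes, 33.3% of 36 lower genes and 36.8% of all matched. TATAAA was in 8.33% of the higher genes, 13.9% of the lower genes and 5.24% of all, and the STAT6-type motif in 4.17%, 5.56% and 4.53%. The sterol motif was in none of the higher or lower genes and in 1.04% of all, the cAMP motif in 4.17%, 2.78% and 3.29%, and the AP-1 motif in 8.33%, 2.78% and 4.57%, in the same order of sets.

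Called genes that fell are described next by their known roles; SLC27A2, PC, HILPDA and ABCG2 were chosen after their values were seen, and no list of such genes was tested. SLC27A2, a fatty acid transporter and very long-chain acyl-CoA synthetase, was at 90.1, 102.4 and 96.0 CPM with ALOX15 siRNA, against 143.7, 141.8 and 139.4 CPM with control siRNA. The groups were far apart, and the log2 change was -0.56 (SE 0.06, adjusted p = 4.9e-05), though 19.9% of its exon bases overlap ATP8B4 on the opposite strand and no source says that reads were counted by strand. PC, pyruvate carboxylase, was at 32.2 ± 0.417 CPM with ALOX15 siRNA and 47.5 ± 1.01 CPM with control siRNA (log2 -0.56, adjusted p = 0.0051), with 10.5% of its exon bases shared with LRFN4 on the opposite strand. PDK4, the kinase that shuts off pyruvate dehydrogenase, was at 97.1 ± 7.80 CPM with ALOX15 siRNA and 133.6 ± 8.58 CPM with control siRNA (log2 -0.46, adjusted p = 0.0078). PDK4 was the 1 called of 23 measured PPAR targets and fatty acid oxidation genes, whose median was 0.08.

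HILPDA, a protein that restrains lipolysis at lipid droplets, SULT2B1, which sulfates cholesterol, and ABCG2, an efflux pump, fell by 0.56, 1.01 and 0.57 on the log2 scale. LIPE, hormone-sensitive lipase, fell by 2.23 (SE 0.50, adjusted p = 0.040), but on counts of 1, 2 and 3 with ALOX15 siRNA, against 13, 9 and 6 with control siRNA. LIPE no longer passed in 5 of the 6 fits without a siRNA library, nor without a filter on low counts, nor against IL4 alone (adjusted p = 0.064). SULT2B1 and HILPDA were each lost in 4 of the 6 fits, those without ALOX15 siRNA replicate 2 or 3 or control siRNA replicate 1 or 3, with adjusted p up to 0.15 and 0.090. PDK4 was lost without ALOX15 siRNA replicate 1 or control siRNA replicate 3, with adjusted p up to 0.075.

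CYP24A1 (chr20:54153449-54173973), the mitochondrial enzyme that inactivates vitamin D, was at 402.7, 413.8 and 388.6 CPM with ALOX15 siRNA, against 583.0, 575.0 and 601.1 CPM with control siRNA. The libraries of each group lay close together and the groups far apart. The log2 change was -0.55 (SE 0.06, adjusted p = 4.9e-05), and 68.5% of the control siRNA level was left. It was the only one called of 13 measured genes of the vitamin D receptor and its targets, of which 8 had positive and 5 negative changes, with a median of 0.07. VDR, the vitamin D receptor gene, was at 17.8 ± 2.13 CPM with ALOX15 siRNA and 14.2 ± 1.83 CPM with control siRNA (log2 0.33, SE 0.14, adjusted p = 0.46).

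The retinoid-related genes STRA6 and RARRES1 fell near the threshold. STRA6, a receptor for retinol-binding protein, was at 29.3, 30.3 and 29.2 CPM with ALOX15 siRNA, against 48.3, 45.1 and 39.2 CPM with control siRNA (log2 -0.58, adjusted p = 0.047). RARRES1 averaged 8.96 ± 0.166 CPM with ALOX15 siRNA and 13.3 ± 1.10 CPM with control siRNA (log2 -0.57, adjusted p = 0.050). Both were lost in each of the 6 fits without a siRNA library, with adjusted p up to 0.27 and 0.24, and RARRES1 shares 14.8% of its exon bases with MFSD1 on the opposite strand.

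The matrix list had the most higher genes of the 24 lists, though it was the largest by genes tested and most of its members did not pass. Of 45 measured genes for epithelial-mesenchymal transition, matrix and TGF-beta targets, 4 were higher, COL12A1 and TNC among them, and none lower, with 30 positive and 15 negative changes and a median of 0.15. Among all genes tested 0.313% were higher and 0.383% lower. At an unadjusted p under 0.05, 16 of the list were higher and 4 lower, beside 1140 of all 12795 genes in either direction. DESeq2 called 6 of the list higher and none lower. In the 6-library fit 11 were higher and none lower, beside 1.39% and 1.24% of all genes tested there. The 11 included these 4, the collagens COL5A1 and COL5A2, the secreted proteins TGFBI and THBS1, the receptor TGFBR1, the transcription factor SNAI1 and the filament protein VIM.

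TNC, the matrix glycoprotein tenascin-C, was at 5.58, 4.40 and 4.40 CPM with ALOX15 siRNA, against 1.74, 2.17 and 2.14 CPM with control siRNA. It had the largest rise among called genes, a log2 change of 1.25 (SE 0.26, adjusted p = 0.026), from counts of 41, 28 and 34 with ALOX15 siRNA, against 12, 14 and 15 with control siRNA. TNC averaged 3.35 ± 0.603 CPM with IL4 alone, between both siRNA groups, and did not pass when ALOX15 siRNA was set against IL4 alone.

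COL12A1, a fibril-associated collagen, rose by a log2 of 0.38 (SE 0.09, adjusted p = 0.047). EFEMP1, the matrix protein fibulin-3, rose by 0.75 (SE 0.12, adjusted p = 0.0035) and the integrin subunit genes ITGA11, for collagen, and ITGA3, for laminin, by 0.63 and 0.28. TNC, COL12A1 and ITGA11 were lost in all 6 fits without a siRNA library, and ITGA3 in 5 and against IL4 alone (adjusted p = 0.074). SNAI1, which represses E-cadherin, was at 3.87 ± 0.09 CPM with ALOX15 siRNA and 1.67 ± 0.089 CPM with control siRNA (log2 1.2, SE 0.29, adjusted p = 0.055). The E-cadherin gene CDH1 was at 155.0 ± 10.2 CPM with ALOX15 siRNA and 152.5 ± 2.44 CPM with control siRNA (log2 0.02, adjusted p = 0.96). Of 29 measured genes of epithelial junctions and keratins, none passed by edgeR, against 3 higher and 3 lower at an unadjusted p under 0.05 and 1 lower, PKP2, by DESeq2. With the 6 siRNA libraries alone CLDN2 and KRT16 were higher and PKP2 lower, beside 1.39% and 1.24% of all genes tested there.

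Markers of other cell types were checked beside the matrix genes. Of 26 such markers 11 could be tested, and RBFOX3, which fell, was the 1 that passed. Summed over the 26, RBFOX3 included, they came to 154 to 163 CPM with ALOX15 siRNA, against 163 to 187 CPM with control siRNA. PTPRC, CD3E, MS4A1, HBA1 and CDH5 had no count in the 6 libraries. LUM, a matrix proteoglycan of fibroblasts, was at 1.45 ± 0.434 CPM with ALOX15 siRNA and 0.832 ± 0.146 CPM with control siRNA (adjusted p = 0.61). The part of other cell types in these calls was not tested.

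Most genes of the IL4 response list did not pass. Of 20 measured IL-4/STAT6 response genes, CST1 and the target ALOX15 itself were lower and none higher. Beside this, 0.383% of all genes tested were lower and 0.313% higher. The list had 10 positive and 10 negative changes and a median of 0.01. CST1 (chr20:23747553-23751268), a secreted cysteine protease inhibitor made by type 2 airway epithelium, was at 213.2, 224.0 and 203.3 CPM with ALOX15 siRNA, against 371.0, 387.2 and 340.9 CPM with control siRNA. Its groups were widely separated, and the log2 change was -0.78 (SE 0.09, adjusted p = 1.7e-04). None of its 6 counts was whole, so some of its reads were shared with another gene. CST1 averaged 39.0 CPM in untreated cells, so the ALOX15 siRNA libraries stayed above the untreated level.

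Other genes of that list did not pass. CCL26, the eosinophil attractant eotaxin-3, was at 107.1 ± 4.10 CPM with ALOX15 siRNA and 89.5 ± 7.38 CPM with control siRNA (log2 0.26, adjusted p = 0.41). TGM2, transglutaminase 2, was at 849.0 ± 43.3 CPM with ALOX15 siRNA and 684.5 ± 33.1 CPM with control siRNA (log2 0.31, adjusted p = 0.14). Both were higher in the 6-library fit, beside 1.39% of all genes tested there. CISH, a feedback inhibitor of cytokine receptors, was at 29.9 ± 4.56 CPM with ALOX15 siRNA and 30.2 ± 4.17 CPM with control siRNA (log2 -0.02, adjusted p = 0.99). STAT6 and IL4R had log2 changes of -0.07 (adjusted p = 0.88) and 0.17 (adjusted p = 0.82).

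Outside that list, other genes that IL4 raised moved in both directions. SLC26A2, a sulfate transporter, was at 498.6, 522.8 and 520.4 CPM with ALOX15 siRNA, against 311.5, 303.9 and 343.5 CPM with control siRNA, with a wide gap between the groups. It rose 1.61-fold (log2 0.69, SE 0.10, adjusted p = 0.0015). CFI, the complement factor I gene, was at 17.4, 19.8 and 12.8 CPM with ALOX15 siRNA, against 26.2, 27.4 and 28.8 CPM with control siRNA, and fell by 0.73 (SE 0.13, adjusted p = 0.0051). SUSD2, a membrane protein gene, fell by 0.62 (SE 0.13, adjusted p = 0.026), a call lost in 5 of the 6 fits without a siRNA library.

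The detoxification genes ALDH3A1 and AKR1B1 fell slightly. ALDH3A1, an aldehyde dehydrogenase typical of A549 cells, was at 1309, 1279 and 1220 CPM with ALOX15 siRNA, against 1798, 1740 and 1683 CPM with control siRNA, without overlap. AKR1B1, aldose reductase, was at 2341, 2402 and 2259 CPM with ALOX15 siRNA, against 3012, 2757 and 2849 CPM with control siRNA. The log2 changes were -0.46 (SE 0.07, adjusted p = 0.0036) and -0.30 (SE 0.05, adjusted p = 0.0037). AKR1B1 did not pass when ALOX15 siRNA was set against IL4 alone. Of 43 measured NRF2 targets these 2 passed and none was higher, with 17 positive and 26 negative changes and a median of -0.03. In the 6-library fit 7 were lower, adding GPX2, AKR1C1, GCLC, EPHX1 and OSGIN1. Over all genes tested in that fit 1.24% were lower and 1.39% higher. In the ferroptosis list, PTGS2 was the only one called of 32. GPX4, which reduces lipid hydroperoxides, was at 120.4 ± 2.79 CPM with ALOX15 siRNA and 103.2 ± 2.29 CPM with control siRNA (log2 0.22, adjusted p = 0.50). The 6-library fit called GPX4 (adjusted p = 0.027) and TFRC higher and PTGS2 and SAT1 lower in that list.

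Other called genes are given next, grouped by their known roles after their values were seen, and those that no list or size rule took were chosen in the same way. IL11, a cytokine of the interleukin-6 family, was at 67.1, 67.2 and 72.5 CPM with ALOX15 siRNA, against 48.6, 54.1 and 44.1 CPM with control siRNA, and rose by a log2 of 0.50 (SE 0.10, adjusted p = 0.012). TNFSF15, a tumour necrosis factor family ligand, was at 9.26, 8.64 and 7.24 CPM with ALOX15 siRNA, against 14.2, 12.9 and 13.6 CPM with control siRNA, and fell by 0.70 (SE 0.13, adjusted p = 0.011). IL11 and TNFSF15 were the 2 called of 27 measured NF-kB and cytokine genes. EDN1, the vasoconstrictor endothelin-1, fell by 0.40 (SE 0.07, adjusted p = 0.0043), and BMP4, a growth factor, by 0.73 (SE 0.14, adjusted p = 0.012). IL11 was lost in 4 of the 6 fits without a siRNA library, TNFSF15 and BMP4 in 3 each. Against IL4 alone TNFSF15 was at log2 -0.46 (adjusted p = 0.11) and BMP4 at -0.38 (adjusted p = 0.26), and neither passed.

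The co-receptors NRP1 and NRP2, which bind semaphorins and vascular growth factors, went opposite ways. NRP1 was at 517.9 ± 8.41 CPM with ALOX15 siRNA and 433.5 ± 12.5 CPM with control siRNA (log2 0.26, adjusted p = 0.010). NRP2 was at 108.7 ± 4.69 CPM with ALOX15 siRNA and 147.6 ± 6.53 CPM with control siRNA (log2 -0.44, adjusted p = 5.7e-04). TACR1, the receptor for substance P, rose by 0.50 (adjusted p = 0.033), JAG1, a Notch ligand, by 0.27 (adjusted p = 0.011) and PRKCA, protein kinase C alpha, by 0.30 (adjusted p = 0.0039). TACR1 was lost in all 6 fits without a siRNA library, JAG1 in 4 and NRP1 in 3. Against IL4 alone TACR1 was at log2 0.31 (adjusted p = 0.19) and NRP1 at 0.19 (adjusted p = 0.052), and neither passed.

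LGR6, a receptor for R-spondins, was at 7.08, 9.58 and 7.24 CPM with ALOX15 siRNA, against 18.8, 16.0 and 15.8 CPM with control siRNA, and fell by 1.09 (SE 0.19, adjusted p = 0.0055). NKD1, a feedback inhibitor that binds Dishevelled, fell by 1.05 (SE 0.23, adjusted p = 0.039) and DKK1, a secreted Wnt inhibitor, by 0.48 (SE 0.08, adjusted p = 0.0064). RSPO3, an R-spondin, rose by 0.30 (SE 0.07, adjusted p = 0.035). DKK1 was lost only without control siRNA replicate 3 (adjusted p = 0.051), LGR6 without ALOX15 siRNA replicate 3 or control siRNA replicate 1, and NKD1 and RSPO3 in 5 of the 6 fits each.

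NPTX1, a secreted neuronal pentraxin, was at 34.9, 35.8 and 29.3 CPM with ALOX15 siRNA, against 19.1, 21.4 and 18.0 CPM with control siRNA, and NAV1, a microtubule-binding neuron navigator, at 40.2, 39.9 and 40.1 CPM with ALOX15 siRNA, against 23.7, 21.7 and 26.4 CPM with control siRNA. They rose by 0.77 (SE 0.10, adjusted p = 4.4e-04) and 0.74 (SE 0.12, adjusted p = 0.0036). SERPINI1, the protease inhibitor neuroserpin, was at 3.40, 2.99 and 3.23 CPM with ALOX15 siRNA, against 7.82, 7.13 and 7.56 CPM with control siRNA, and fell by 1.22 (SE 0.17, adjusted p = 7.1e-04). RBFOX3, a splicing factor used to mark neurons, was at 39.2, 41.5 and 43.4 CPM with ALOX15 siRNA, against 61.5, 73.0 and 65.4 CPM with control siRNA, and fell by 0.69 (SE 0.09, adjusted p = 2.9e-04). These 4 had no overlap between groups and passed in every fit without a siRNA library.

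**Figure D3:**
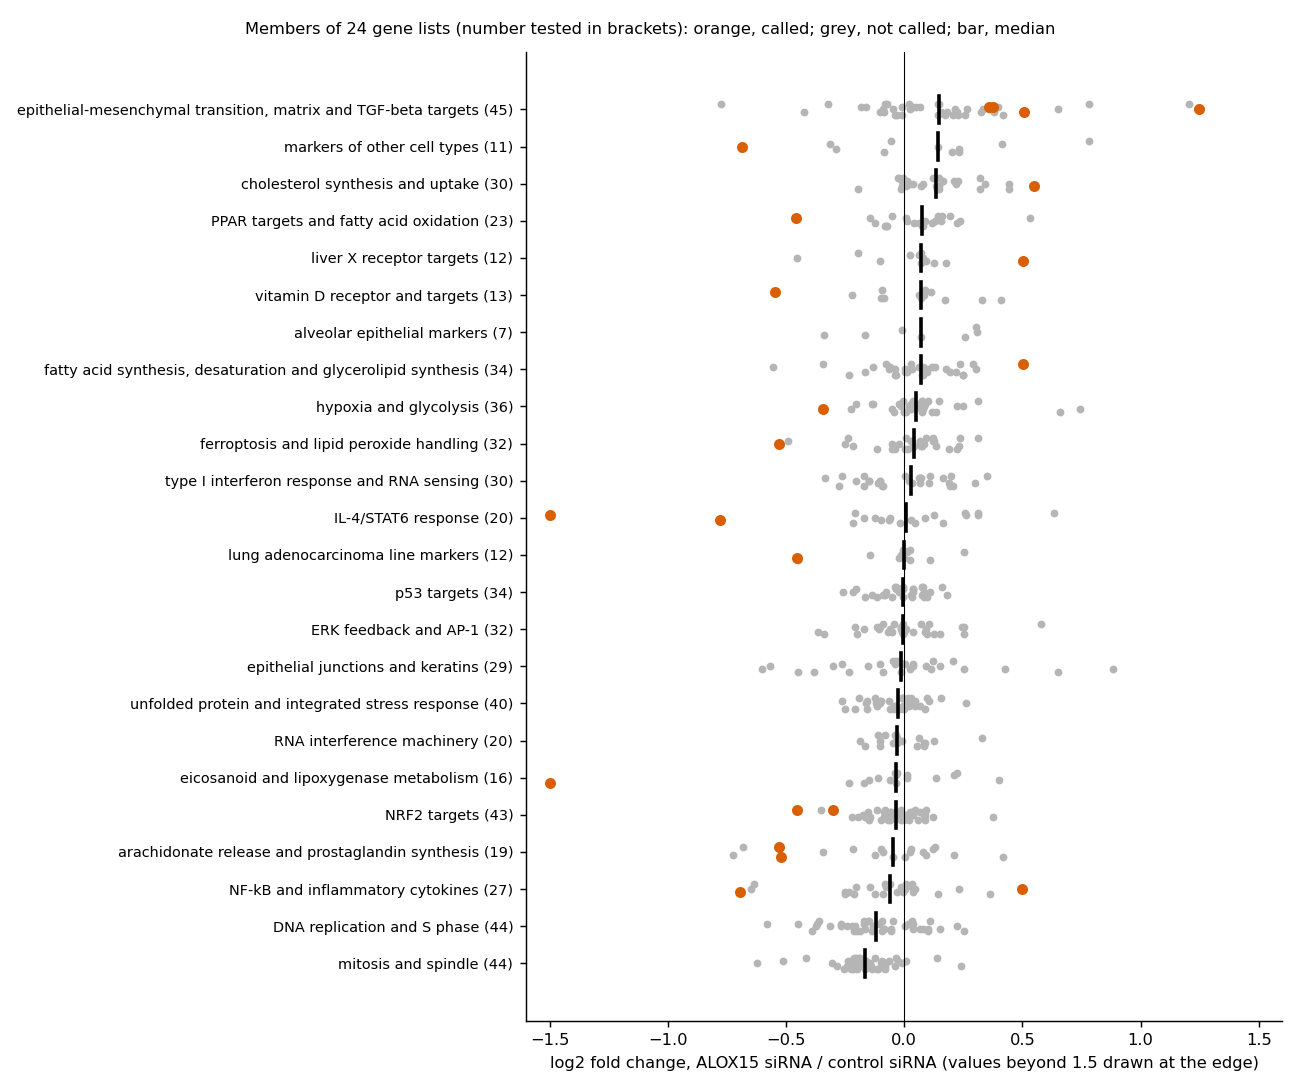
Log2 fold change of ALOX15 siRNA against control siRNA for the tested members of 24 gene lists, ordered by their median (bar); orange points passed. The 4 orange points of the matrix list all lie to the right of 0, and 41 of the 44 mitosis genes lie to the left of 0 without 1 that passed.

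Cell cycle lists had no called member but leaned downwards. Of 44 mitosis and spindle genes, 41 had negative changes and 3 positive, with a median of -0.17, and of 44 DNA replication genes 30 were negative, with a median of -0.12. By edgeR none passed in either list. At an unadjusted p under 0.05, 11 mitosis and 2 replication genes were lower and none higher, and DESeq2 called none. Among all 12795 genes tested, 49.9% had negative changes, and 1140 in either direction had an unadjusted p under 0.05. The 6-library fit called BUB1B, ECT2, ESPL1, MKI67 and PLK1 lower in the mitosis list and CDC6 in the other. Over all genes tested in that fit 1.24% were lower. MKI67, the proliferation marker Ki-67, was at 123.1 ± 4.34 CPM with ALOX15 siRNA and 142.6 ± 5.15 CPM with control siRNA (log2 -0.21, adjusted p = 0.32). PLK1, a mitotic kinase, was at 29.9 ± 1.74 CPM with ALOX15 siRNA and 39.8 ± 4.32 CPM with control siRNA (log2 -0.42, adjusted p = 0.13).

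Lists for the possible side effects of an siRNA showed no call. Both groups had a siRNA pool, so a response shared by the pools cannot show in this comparison. The siRNA sequences are not in the sources used here, and off-target matches were not looked for. Of 30 measured genes of the type I interferon response and RNA sensing, none passed by edgeR, with 2 higher and 1 lower at an unadjusted p under 0.05, none by DESeq2 and none in the 6-library fit. IFNB1 and IFNL1 had no count in the 6 libraries. Of 20 genes of the RNA interference machinery none passed, with 1 higher at an unadjusted p under 0.05 and none by DESeq2 or in the 6-library fit. Of 34 p53 targets and 40 stress response genes none passed by edgeR or DESeq2, with none and 3 at an unadjusted p under 0.05. The 6-library fit called 1 p53 target and 2 stress response genes, beside 2.63% of all genes tested there. Of 32 ERK feedback and AP-1 genes none passed by edgeR or DESeq2, with 3 higher and 3 lower at an unadjusted p under 0.05 and 2 lower, CCND1 and JUND, in the 6-library fit. Of 36 hypoxia and glycolysis genes, the glucose transporter gene SLC2A3 alone passed, at 97.7 ± 8.22 CPM with ALOX15 siRNA and 123.9 ± 3.64 CPM with control siRNA (log2 -0.34, adjusted p = 0.043), a call lost in all 6 fits without a siRNA library.

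Control siRNA could be set beside IL4 alone, a comparison that shares the control siRNA libraries. By edgeR none of 12795 genes passed (0% called), against 628 at an unadjusted p under 0.05 and 2, both lower, by DESeq2. With IL4 alone in place of control siRNA, 68 of the 89 genes passed, a setting that keeps the same ALOX15 siRNA libraries.

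The called genes were then placed by what IL4 alone did to them, using libraries that the siRNA comparison does not contain. Both comparisons came from 1 fit, however, so filter, scaling and estimate of spread were shared and the calls were not independent. In the fit of all 15 libraries, IL4 raised 11.2% of genes tested and lowered 11.6%. Of the 40 genes higher with ALOX15 siRNA, 33 (82.5%) were raised by IL4, 1 (2.50%) was lowered and 6 did not pass. These 33 are 2.30% of the 1435 genes raised by IL4. Of the 49 genes lower with ALOX15 siRNA, 13 (26.5%) were raised by IL4, 22 (44.9%) were lowered and 14 did not pass. Without IL4 replicate 1 in the fit, 34 of these 40 were raised and 23 of these 49 lowered. The shares of all genes in that fit are not given here. The median log2 change with IL4 was 0.65 over the 40 and -0.15 over the 49.

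By both calls, 4 kinds of gene were found. SCD, INSIG1, SLC26A2, TNC, IL11 and TACR1 were raised by IL4 and were higher still with ALOX15 siRNA. PTGS2 and PLA2G4A were lowered by IL4, with log2 changes of -1.13 and -1.06, and were lower still with ALOX15 siRNA, as was PDK4. ALOX15, CST1, CFI, SUSD2, STRA6 and AKR1B1 were raised by IL4 and were lower with ALOX15 siRNA. STC1, a secreted glycoprotein hormone, was the 1 gene lowered by IL4 (log2 -0.68) and higher with ALOX15 siRNA (log2 0.58, SE 0.11, adjusted p = 0.013), a call lost against IL4 alone (adjusted p = 0.060) and in 3 of the 6 fits without a siRNA library. The shares moved with the fit: with the 6 siRNA libraries and the 6 IL4 and untreated libraries fitted apart, 50% of the higher genes were raised by IL4 and 23.5% of the lower genes were lowered. Leaving out ALOX15 siRNA replicate 1 or IL4 replicate 1 gave 65.0% or 64.2% for the higher genes. The shares of all genes that IL4 raised or lowered in these other fits are not given here, so these percentages lack their own background.

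**Figure D4:**
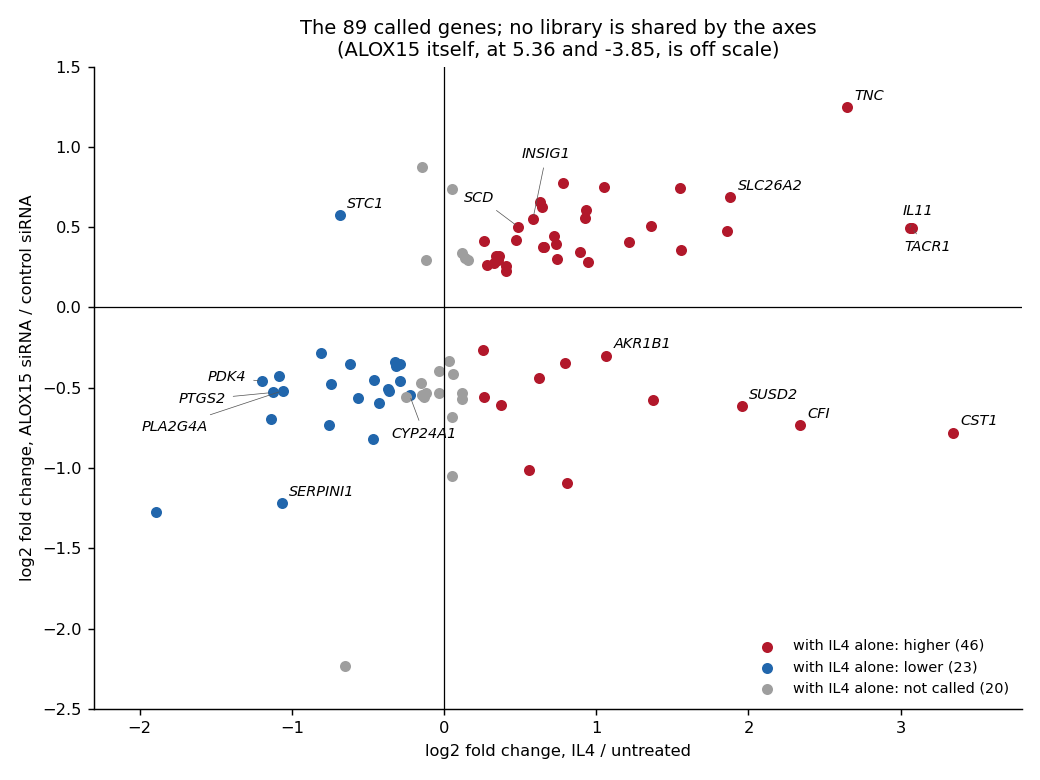
Log2 fold change of ALOX15 siRNA against control siRNA (vertical) and of IL4 against untreated (horizontal) for the 89 called genes, coloured by their call with IL4. Of the 40 points above 0, 33 are red and 1 is blue, and below 0 red and blue points number 13 (ALOX15 included, off scale) and 22.

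Compound A is the other agent given with IL4, and its libraries are set against IL4 alone, so this comparison shares no library with that of the siRNAs. The filter, scaling and estimate of spread are shared. No source states the dose or vehicle of Compound A, so the size of its effects belongs to an unstated dose. Compound A raised 6.35% and lowered 8.07% of genes tested. Of the 40 genes higher with ALOX15 siRNA, 2 were higher and 15 (37.5%) lower with Compound A. Of the 49 genes lower with ALOX15 siRNA, 10 (20.4%) were higher and 11 (22.4%) lower with Compound A. The medians with Compound A were -0.19 and -0.05. Without IL4 replicate 1, 1 of the 40 was higher and 15 lower, and 7 of the 49 were higher and 11 lower. Shares over all genes in that fit are not given here.

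The difference between the effects was tested directly, as the ALOX15 siRNA change minus the Compound A change, and passed for 5.14% of genes tested, 3.20% upwards and 1.94% downwards. SCD was 0.50 with ALOX15 siRNA and -0.36 with Compound A, a difference of 0.86 (SE 0.09, adjusted p = 5.8e-06). INSIG1 had 0.55 and -0.36, a difference of 0.91 (SE 0.12, adjusted p = 1.6e-04). PTGS2 had -0.53 and 0.26, a difference of -0.79 (SE 0.12, adjusted p = 4.0e-04), and CYP24A1 -0.55 and 0.28, a difference of -0.82 (SE 0.08, adjusted p = 3.7e-06). In these 4 genes ALOX15 siRNA and Compound A took opposite directions, and each change passed by itself. Without IL4 replicate 1 the Compound A change of PTGS2 no longer passed (log2 0.16, SE 0.07, adjusted p = 0.12), while the difference did (-0.69, SE 0.09, adjusted p = 5.5e-06), as did the differences for SCD, INSIG1 and CYP24A1.

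Other genes moved the same way with both. CST1 had -0.78 with ALOX15 siRNA and -0.80 with Compound A, a difference of 0.02 (SE 0.13, adjusted p = 0.95). PLA2G4A had -0.52 and -0.25, a difference of -0.27 (SE 0.10, adjusted p = 0.14), and SLC26A2 had 0.69 and 0.40, a difference of 0.28 (SE 0.14, adjusted p = 0.26). NKD1 had -1.05 and -1.39, a difference of 0.34 (SE 0.33, adjusted p = 0.60). Without IL4 replicate 1 the difference for SLC26A2 passed (0.43, SE 0.07, adjusted p = 9.9e-05), and those for CST1, PLA2G4A and NKD1 did not. A difference that did not pass does not show that the changes were equal. Over the called genes, the difference passed for 29 of the 40 higher and 25 of the 49 lower genes, with the sign of the ALOX15 siRNA change in all of them. Without IL4 replicate 1 it passed for 35 and 30, and its share over all genes in that fit is not given here. That sign is partly fixed by choosing genes on the ALOX15 siRNA change.

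**Figure D5:**
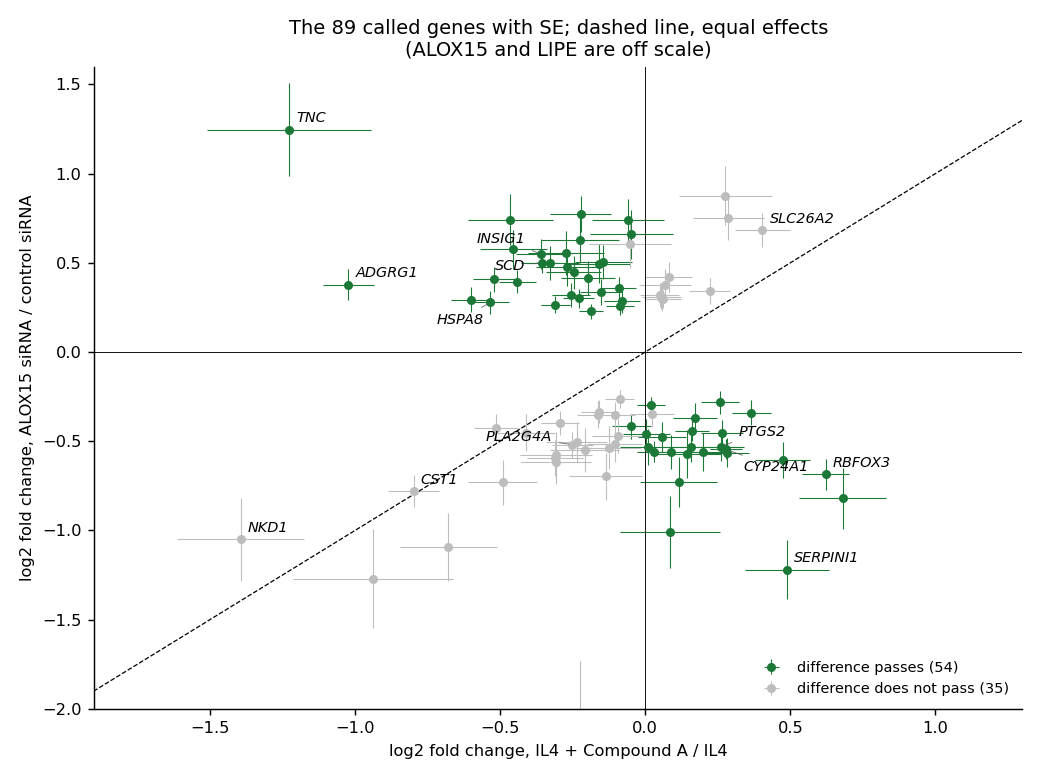
Log2 fold change of ALOX15 siRNA against control siRNA (vertical) and of Compound A against IL4 (horizontal), each with its SE, for the 89 called genes; green points pass the test of the difference. SCD, INSIG1, TNC and ADGRG1 lie at upper left and PTGS2, CYP24A1, RBFOX3 and SERPINI1 at lower right, while CST1 lies near the dashed line of equal effects.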

How the data were processed

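RNA of 15 A549 libraries was sequenced, and the table that the authors deposited holds expected counts, unscaled estimates of reads per gene. Per the submitters' processing notes, the authors used Bowtie2 2.1.0, RSEM 1.2.15 and hg38; the annotation, filters and strand setting are not given in the sources used here.

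Counts were rounded and filtered with filterByExpr, leaving 12795 of 26475 genes. Libraries were TMM-scaled and fitted together, with 1 coefficient per group, in edgeR 4.0.16 under R 4.3.3 by its robust quasi-likelihood method; Benjamini-Hochberg adjustment ran over all genes tested with a threshold of 0.05. SE is the absolute log2 change over the square root of F. Log2 CPM used a prior count of 2. The fit was tested on simulated data. Each library's depth is 6407936 counts or more, so genes at a few counts carry large counting error.

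Alternatives were the 6 siRNA libraries alone, DESeq2 1.42.0, other scalings and filters, unrounded counts, a correction for GC content (a loess curve of span 0.3 over the 95.1% of genes with a GC value), a replicate block, a 1.5-fold threshold (glmTreat) and each library left out. IL4 alone as the reference was added after the data were seen.

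Named genes were the 15 highest and 15 lowest log2 changes among called genes with 1 CPM or more and no overlap, the 6 largest CPM differences each way, 4 markers and up to 4 genes per list by p. Other genes were named after their values were seen. The members, the 24 lists and the rule were chosen with earlier results of these data known. A few genes are not reported here by name. Positions are from GENCODE models on GRCh38, matched by symbol.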

Additional observations from a re-analysis of the deposited data

How the results depend on the processing

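Of 161 named genes, 89 had passed. Over 3053 pairs of a named gene and a setting, none changed sign where either fit called the gene. Sign changes with no call in either fit were not counted as reversals. PTGES, for example, was at log2 0.42 in the main fit and -0.08 with IL4 alone as the reference. Of the pairs, 2577 kept their side of the threshold, 338 lost a call and 138 gained one. Genes higher and lower with ALOX15 siRNA, 40 and 49, became 43 and 47 with RLE scaling, 64 and 56 with DESeq2, 136 and 128 with GC correction, 172 and 153 with the 6 siRNA libraries alone, and 0 and 1 (ALOX15) at a 1.5-fold threshold, where 60 had an unadjusted p under 0.05. With IL4 alone as the reference 83 were higher. With 1 library left out they ran from 12 to 148 higher and 23 to 124 lower, lowest without ALOX15 siRNA replicate 3. Why GC correction and the smaller fit gave more calls was not tested.

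Same-numbered siRNA libraries deviated together in 2 of 3 pairs (correlations -0.139 to 0.150), so the numbers were not taken to pair them. Over all pairs of groups, 13 of 30 correlations were over 0.1 (range -0.378 to 0.509). Those of IL4 with untreated libraries were 0.509, 0.245 and 0.328, and these groups were fitted unpaired too. For the siRNA comparison a replicate block gave 65 higher and 63 lower, 157 and 148 with GC correction, and 214 and 188 in the 6 libraries. For the difference from Compound A, 396 were lower with the block and 727 and 716 higher and lower with both.

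GC correction gave 645 and 584 for that difference. Control siRNA against IL4 had 1 gene higher with GC correction, with and without the block, and 2 lower with DESeq2. For Compound A 1275 were higher with block and GC correction. With 1 library left out, Compound A called 294 to 1493 higher and 475 to 1523 lower, the difference 213 to 638 and 111 to 515, and IL4 1182 to 1597 and 800 to 1714. Shares of higher genes raised by IL4 ran from 64.2% to 84.6% and were 65.6% with block and GC correction and 50% in separate fits; those lowered by IL4 ran from 0% to 10.0%. Shares of lower genes lowered by IL4 were 23.5% in separate fits.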
